A study of Homo sapiens with 12 samples.

Results

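The transcripts of PPARA, of its coactivator gene PPARGC1A and of 6 genes of fatty acid oxidation (CPT1A, CPT2, ACADM, ACADVL, HADHA and EHHADH) were followed in SLMP53-2-treated HuH-7 cells. The genes were taken by name from the array design, where 14 of 41000 gene probes carry 1 of the 8 names, and the design holds 29245 gene names in all. HuH-7 is a cell line derived from hepatocellular carcinoma and carries the p53 mutation Y220C, which all groups share. SLMP53-2 is a small molecule selected in the study as a reactivator of mutant p53. Cells received DMSO (the solvent control), 28 µM or 42 µM SLMP53-2 for 24 h, with 4 biological replicates and 1 one-colour array per replicate in each group, 12 arrays in all. The doses were labelled as 2 and 3 times the IC50, and the treatment field of the higher dose gives 48 µM where the titles and the protocol give 42 µM. One cell line was used, with no line lacking mutant p53 among these arrays, so the comparisons describe the response to the compound in HuH-7.

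In hepatocytes, PPARA is a nuclear receptor that binds fatty acids, pairs with RXR and switches on the genes of fatty acid oxidation during fasting. PGC-1alpha, the product of PPARGC1A, is recruited by PPARA and other receptors and raises their activity. Long-chain fatty acids enter mitochondria through CPT1A and CPT2, are shortened by acyl-CoA dehydrogenases such as ACADVL and ACADM and by the trifunctional protein that HADHA forms part of, and the acetyl-CoA produced can be turned into ketone bodies.

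Values are normalized log2 signals of a probe, so a difference of 1 is a doubling, and the level of 1 probe was not set against that of another. Testing required a signal well above background on 2 or more arrays in any one group, a condition met by 33476 probes and by 13 of the 14 probes of the 8 genes. A change was called at an adjusted p (limma, Benjamini-Hochberg over all tested probes) under 0.05 together with an absolute log2 fold change of at least 0.6. Between 65 and 85% of the spots of gene probes were well above background on an array. The fourth 28 µM replicate stood apart from its group. Over the probes called at 42 µM, its median shift from the DMSO mean, in the direction of the call, was 0.138 on the log2 scale. That median was 0.704 or more on the other 28 µM arrays and 0.0376 or less on the DMSO arrays, which sit close to the DMSO mean by construction. The array was thus set apart by its values over called probes, so fits without it leave out an array chosen by outcome. Fitted differences that involve the 28 µM group are therefore given with and without that array. Of the hepatocyte markers, 9 of 10 were detected on all 12 arrays, including ALB, APOA1 and SERPINA1, and TTR was detected on 11. Among the leukocyte markers, PTPRC was detected on 2 of 12 arrays, while the summed signal of the list ranged from 1070 to 1450 in DMSO, from 792 to 1540 at 28 µM and from 772 to 989 at 42 µM on the linear scale. The fibroblast list, with 3 of 6 markers detected on every array, ranged from 1460 to 1810 over all arrays. The part of these lists in the results below was not tested. Because RNA was taken from whole cultures, a change in the share of cells that express a gene cannot be told apart from a change in RNA per cell.

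At 42 µM, PPARGC1A, CPT1A and PPARA each had a probe or more whose 4 arrays lay above all 4 DMSO arrays, and CPT2 lay below. Over all probes with a value on every array, 12.3% separated 42 µM from DMSO in either direction. The sizes were 1.80-fold for PPARGC1A A_23_P18447, 1.44-fold for the brighter CPT1A probe, 1.30-fold for the brightest PPARA probe and 0.832-fold for CPT2. The second PPARGC1A probe, A_24_P303052, was 1.09-fold and overlapped with DMSO, and the second CPT1A probe was 1.25-fold. PPARA probes A_23_P306730 and A_23_P211643 also overlapped with DMSO. None of the 13 probes passed both limits when all arrays were fitted, where 2.65% of all tested probes did. The smallest adjusted p (limma) among the 13 was 0.0716, for CPT1A. ACADM, ACADVL and HADHA overlapped between the groups, and EHHADH was not well above background on 11 of 12 arrays.

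**Figure D1:**
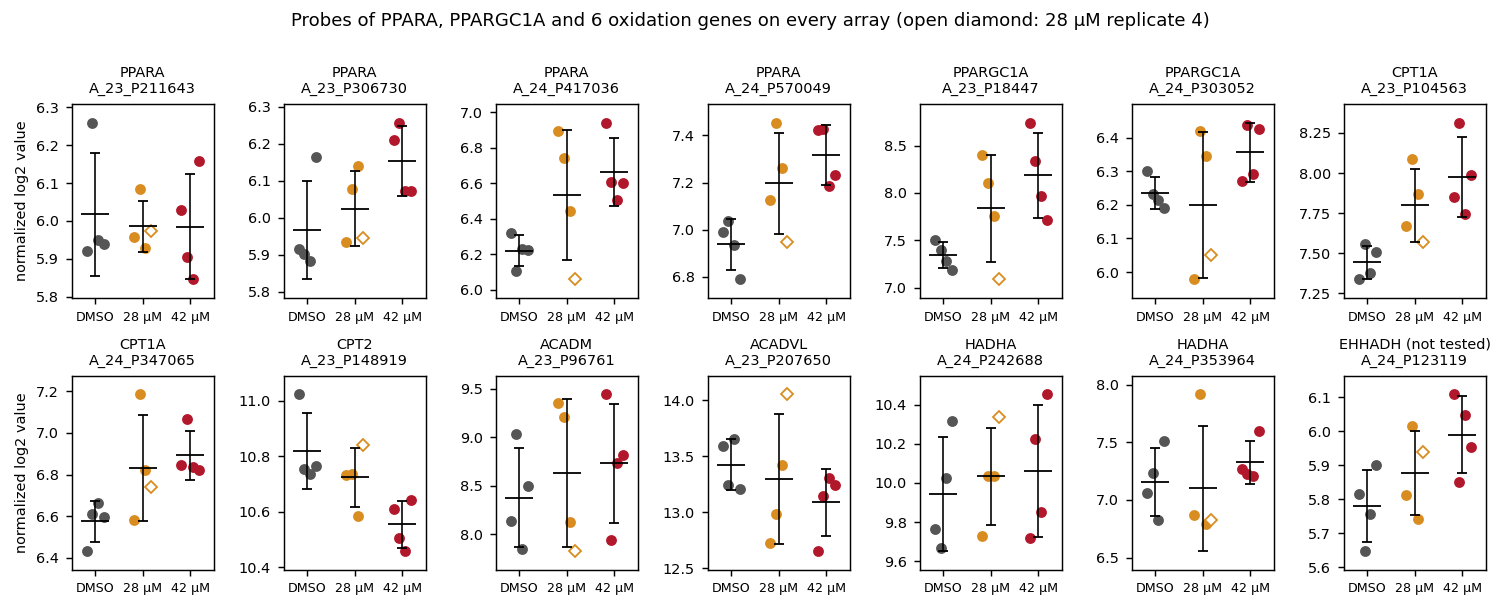
Normalized log2 value of each of the 14 probes (y axes, each with its own range) on the DMSO, 28 µM and 42 µM arrays (x axis). Points are arrays, bars are group means with the SD (n = 4), and the open diamond is 28 µM replicate 4. The 42 µM arrays lie above all DMSO arrays for 5 tested probes of PPARA, PPARGC1A and CPT1A and below them for CPT2. Of all probes with a value on every array, 12.3% did not overlap between 42 µM and DMSO.

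PPARGC1A encodes PGC-1alpha and was read by a pair of probes. Probe A_23_P18447 (hg19 chr4:23793937-23793996, minus strand) read 7.51, 7.39, 7.28 and 7.19 on the DMSO arrays. It read 8.40, 8.10, 7.76 and 7.09 at 28 µM, and 8.74, 8.34, 7.96 and 7.71 at 42 µM. Every 42 µM array was above every DMSO array, and 3 of the 4 arrays at 28 µM were, while 28 µM replicate 4 was the lowest of the 12 arrays. The difference from DMSO at 42 µM was 0.84 on the log2 scale (SE 0.26), or 1.80-fold with a 95% interval of 1.22 to 2.65 (limma, adjusted p = 0.107). At 28 µM it was 0.49 (SE 0.26, adjusted p in limma 0.513). With 28 µM replicate 4 left out of the fit, the 42 µM difference kept its size and passed both limits (limma, adjusted p = 0.0348), and the 28 µM difference was 0.74 (adjusted p = 0.118). In the fit, the array enters the 42 µM comparison only through the spread, which all groups share. It also took part in the quantile normalization and the probe filter, which were not redone without it. On the 3 slides that carried both groups, 42 µM exceeded DMSO by 0.57 to 1.55.

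The second PPARGC1A probe, A_24_P303052, did not show that separation. Its 60 bases lie within chr4:23814715-23815338 (hg19, minus strand), a stretch of 624 bases, so the probe is split over an exon junction. It is printed because it reads a different stretch of the transcript from A_23_P18447.
PPARGC1A A_24_P303052: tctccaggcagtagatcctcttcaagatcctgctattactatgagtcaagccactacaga
A_23_P18447, by contrast, has a stop codon in each of its 3 forward frames and so cannot lie wholly in coding sequence. The values of A_24_P303052 ran from 6.19 to 6.30 in DMSO, from 5.98 to 6.42 at 28 µM and from 6.27 to 6.44 at 42 µM, so the groups overlapped. Its difference at 42 µM was 0.12 (SE 0.12), and the interval of 0.913 to 1.30-fold lies below the 1.80-fold estimate of the other probe. Over the 12 arrays the pair correlated at r = 0.224, and A_24_P303052 was well above background on 3 of 4 DMSO arrays, so what is said of PPARGC1A above rests on 1 probe.

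PPARA itself was read by 4 probes, which were dim to different degrees. A_24_P570049 (hg19 chr22:46639178-46639237, plus strand), the only one well above background on all 12 arrays, read 6.99, 7.04, 6.93 and 6.79 in DMSO. It read 7.12, 7.45, 7.26 and 6.95 at 28 µM and 7.42, 7.43, 7.18 and 7.23 at 42 µM. All 42 µM arrays were above all DMSO arrays, and at 28 µM only replicate 4 lay within the DMSO range. The 42 µM difference was 0.38 (SE 0.13), or 1.30-fold with an interval of 1.08 to 1.57 (limma, adjusted p = 0.132), and the 28 µM difference was 0.26 (adjusted p = 0.47), or 0.34 without replicate 4 (adjusted p = 0.198).

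A_24_P417036 (chr22:46637156-46637215) lies upstream of it in the same gene and moved with it over the arrays (r = 0.76). It read 6.11 to 6.32 in DMSO, where it was well above background on 2 of 4 arrays, and it ran from 6.06 to 6.89 at 28 µM and from 6.51 to 6.94 at 42 µM. The 42 µM values were again above every DMSO value, with a difference of 0.44 (SE 0.17, limma adjusted p = 0.195). The other two probes did not separate the groups. A_23_P306730 (chr22:46631427-46631487) was well above background on 1, 1 and 3 arrays of DMSO, 28 µM and 42 µM and differed by 0.19 at 42 µM (interval 0.970 to 1.34-fold, limma adjusted p = 0.461). A_23_P211643 (chr22:46615754-46615813) was not well above background on any DMSO array and was on 2 and 1 arrays of the doses, so no fold is given. Its sequence, which holds 1 open forward frame, lies the farthest upstream of the 4.
PPARA A_23_P211643: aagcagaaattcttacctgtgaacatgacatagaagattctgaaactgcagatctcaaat
The PPARA probes that separated 42 µM from DMSO were therefore those farthest downstream in the gene, and the other two, detected on fewer arrays, showed no separation.

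CPT1A encodes the outer membrane carnitine palmitoyltransferase, the rate-limiting entry step for long-chain fatty acids, and both of its probes were well above background on all arrays. A_23_P104563 (hg19 chr11:68527063-68527122, minus strand) read 7.34, 7.56, 7.38 and 7.51 in DMSO. At 28 µM it read 7.67, 8.09, 7.87 and 7.57, and at 42 µM 7.85, 8.31, 7.74 and 7.99. Both doses lay wholly above DMSO, 28 µM replicate 4 by the least, and the doses overlapped each other. The probe is shown because it had the smallest adjusted p among the 13.
CPT1A A_23_P104563: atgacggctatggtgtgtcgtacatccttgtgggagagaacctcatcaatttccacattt
The difference was 0.53 at 42 µM (SE 0.15), or 1.44-fold with an interval of 1.16 to 1.80 (limma, adjusted p = 0.0716). At 28 µM it was 0.36 (SE 0.15), or 1.28-fold with an interval of 1.03 to 1.59 (limma, adjusted p = 0.393), and 0.43 without replicate 4 (adjusted p = 0.184). Within slides, the 42 µM array exceeded the DMSO array by 0.19 to 0.94 on 3 of 3 slides, and the 28 µM array did so by 0.17 to 0.53 on 3 of 3.

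The second CPT1A probe, A_24_P347065 (chr11:68524206-68524265), followed the first over the 12 arrays (r = 0.881). It read 6.43, 6.61, 6.66 and 6.60 in DMSO, 6.58, 7.18, 6.82 and 6.74 at 28 µM, and 6.85, 7.07, 6.83 and 6.82 at 42 µM. The 42 µM arrays were all above DMSO, by 0.32 on average (SE 0.13, limma adjusted p = 0.255), and 28 µM replicate 1 fell inside the DMSO range. CPT1A was thus the gene of the 8 in which every probe separated 42 µM from DMSO in the upward direction.

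CPT2, the inner membrane carnitine palmitoyltransferase that rebuilds acyl-CoA in the matrix, had the opposite sign. Its probe A_23_P148919 (hg19 chr1:53679252-53679311, plus strand) read 11.02, 10.76, 10.73 and 10.76 in DMSO, 10.73, 10.74, 10.59 and 10.84 at 28 µM and 10.61, 10.51, 10.46 and 10.64 at 42 µM. The 42 µM arrays were all below the DMSO arrays, whereas 28 µM overlapped them. The difference was -0.26 at 42 µM (SE 0.11), or 0.832-fold with an interval of 0.709 to 0.977 (limma, adjusted p = 0.241), and -0.10 at 28 µM (adjusted p = 0.769), or -0.13 without replicate 4 (adjusted p = 0.602).

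The enzymes of the spiral itself overlapped between groups. ACADM, the medium-chain acyl-CoA dehydrogenase, was read by A_23_P96761 (hg19 chr1:76227040-76228420, plus strand), whose 60 bases are split over an exon junction within 1381 bases.
ACADM A_23_P96761: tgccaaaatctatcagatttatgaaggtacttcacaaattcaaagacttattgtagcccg
It ranged from 7.85 to 9.03 in DMSO, from 7.83 to 9.36 at 28 µM and from 7.94 to 9.44 at 42 µM. The spread within each group was over 1 on the log2 scale, and the 42 µM difference of 0.35 (SE 0.38) leaves an interval of 0.723 to 2.26-fold. ACADVL, the very long-chain acyl-CoA dehydrogenase, was read by A_23_P207650 (chr17:7128439-7128498, plus strand) with values from 13.21 to 13.65 in DMSO, from 12.73 to 14.05 at 28 µM and from 12.65 to 13.30 at 42 µM. Its difference at 42 µM was -0.34 (SE 0.25, interval 0.547 to 1.15-fold, limma adjusted p = 0.598). The highest ACADVL value of all 12 arrays was that of 28 µM replicate 4, and the 28 µM difference was -0.13 with that array and -0.38 without it (adjusted p = 0.875 and 0.388).

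HADHA encodes the alpha subunit of the mitochondrial trifunctional protein. A_24_P242688 (hg19 chr2:26415197-26415256, minus strand) ranged from 9.67 to 10.32 in DMSO and from 9.72 to 10.45 at 42 µM, a difference of 0.12 (interval 0.815 to 1.45-fold). A_24_P353964 (chr2:26459795-26459854) ranged from 6.82 to 7.51 in DMSO and from 7.21 to 7.60 at 42 µM, a difference of 0.17 (interval 0.795 to 1.59-fold). The groups overlapped on both probes, which correlated at r = 0.241 over the 12 arrays. EHHADH, the peroxisomal bifunctional enzyme and a classical PPARA target, was read by A_24_P123119 (chr3:184909424-184909483, minus strand), which was well above background on 0, 1 and 0 arrays of DMSO, 28 µM and 42 µM. It was not tested, and no fold is given.

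**Figure D2:**
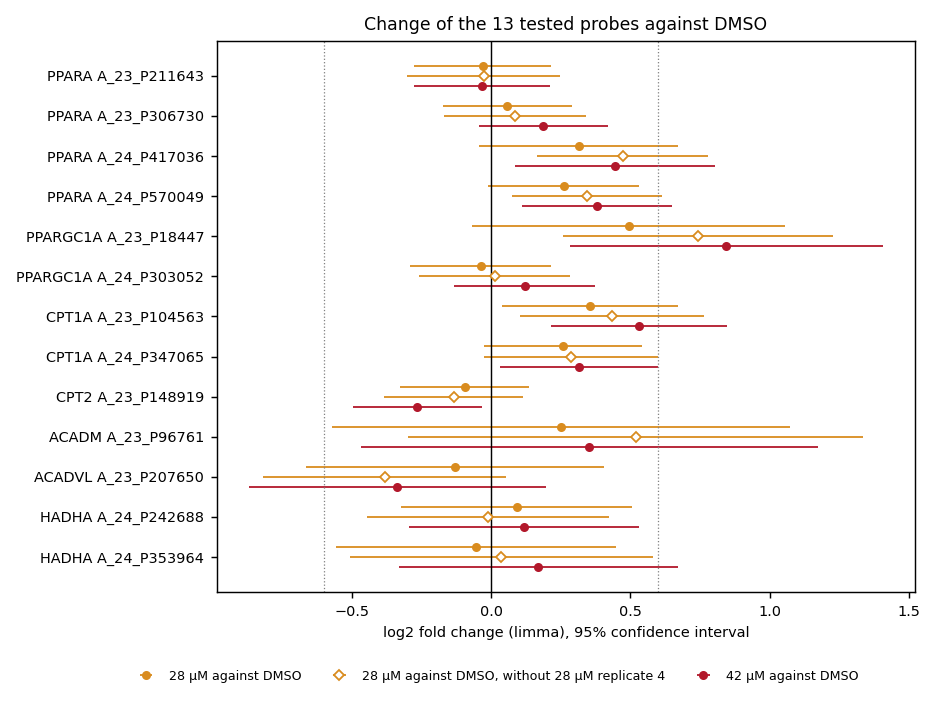
Log2 fold change against DMSO (x axis) of the 13 tested probes (y axis), from limma, with 95% confidence intervals. Filled orange circles are 28 µM with all arrays, open diamonds 28 µM without replicate 4 and red circles 42 µM, and dotted lines mark the log2 limit of 0.6 in either direction. The largest estimate is that of PPARGC1A A_23_P18447 at 42 µM, 0.84, and the intervals of ACADM, ACADVL and HADHA include 0.

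Counted over the 13 tested probes, 0 were called at 42 µM against DMSO, where 2.65% of all tested probes were called. At an unadjusted p under 0.05 in limma, 5 of 13 were higher and 1 was lower at 42 µM (15.4% of all tested probes, both directions). The same 5 higher and 1 lower did not overlap between the groups, beside 12.3% of all probes with a value on every array. The median log2 difference was 0.19, against -0.01 over all probes. These 6 probes come from 4 genes, since CPT1A and PPARA each gave a pair of them, and probes of 1 gene are not independent.

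At 28 µM against DMSO, 0 of 13 were called (0% of all tested probes), and 1, the brighter CPT1A probe, had an unadjusted p under 0.05 in limma (11% of all) and did not overlap with DMSO (5.37% of all). Without 28 µM replicate 4, 0 of 13 were called at 28 µM (2.14% of all), 4 had an unadjusted p under 0.05 (15.7% of all), and 1 was called at 42 µM (3.66% of all), which was PPARGC1A A_23_P18447. Between the doses, 0 of 13 were called in limma (0% of all), 0 had an unadjusted p under 0.05 (2.46% of all) and 0 separated the doses (1.48% of all). The largest difference between the doses was that of PPARGC1A A_23_P18447, 1.28-fold with an interval of 0.863 to 1.88, or 0.10 on the log2 scale (interval -0.38 to 0.59) without 28 µM replicate 4. For CPT1A A_23_P104563 it was 1.13-fold with an interval of 0.908 to 1.40, or 1.07-fold (0.851 to 1.35) without that array. Of the 13 probes, 5 lay within the DMSO range on 28 µM replicate 4, against 5, 4 and 5 on replicates 1, 2 and 3.

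The promoters of the 8 genes were searched in the RefSeq table of build GRCh38.p14, which gave 10 promoters for 7 genes (250 bases before to 50 after each start). Motifs were searched on both strands. None of the 10 held the direct repeat bound by PPARA with RXR (AGGTCANAGGTCA, in 0.0228% of 35116 promoters), its half-site (AGGTCA, 13.8%, contained in the repeat), the cAMP response element (TGACGTCA, 1.85%) or the C/EBP-ATF element (TGATGNAA, 3.62%). This says only that those letters are not in these windows.

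The other genes of the pathway were taken from 7 lists holding 100 genes, of which 97 had a tested probe (not ACADL, ABCD2 and CYP4A22), with the brightest probe standing for a gene. At 42 µM 3 genes rose past both limits and none fell, where 3% of all genes were called, and 21 were higher and 6 lower by an unadjusted p under 0.05 in limma (16.1% of all genes). The 3 genes were LPIN1, ACSL1 and G0S2. No gene was called by limma at 28 µM, where 15 were higher and 5 lower by an unadjusted p under 0.05 (11.8% of all genes), or between the doses, where 1 was higher and 5 were lower (2.59%). Without 28 µM replicate 4, 4 genes were called at 28 µM (2.43% of all genes) and 7 at 42 µM (4.11%). The number of calls at 42 µM depended on single arrays: it was 0 without DMSO replicate 1, 2 or 4 or without 42 µM replicate 2, and also 0 with slide as a fixed block.

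LPIN1, which encodes lipin-1, a phosphatidate phosphatase that also acts as a nuclear coactivator with PGC-1alpha, read 9.80, 9.66, 10.18 and 9.50 in DMSO. It read 11.13, 11.45, 11.16 and 10.02 at 28 µM and 11.58, 11.59, 10.84 and 10.82 at 42 µM. All 42 µM arrays were above DMSO, and 28 µM replicate 4 alone of its group fell inside the DMSO range. LPIN1 rose 2.69-fold at 42 µM (interval 1.75 to 4.14, limma adjusted p = 0.0208), and its 28 µM difference on the log2 scale was 1.16 with all arrays (adjusted p = 0.194) and 1.47 without replicate 4 (adjusted p = 0.00576).

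ACSL1, the acyl-CoA synthetase that activates long-chain fatty acids, read 9.33, 9.40, 9.80 and 9.61 in DMSO, 9.94, 10.79, 10.39 and 10.13 at 28 µM and 10.17, 11.16, 10.37 and 10.21 at 42 µM. Both doses lay above every DMSO array, replicate 4 of 28 µM included. The gene rose 1.93-fold at 42 µM (interval 1.37 to 2.71, limma adjusted p = 0.0414). G0S2, whose product inhibits the lipase ATGL, was not well above background on any DMSO array and was on 3 of 4 arrays at 28 µM and on all 4 at 42 µM. It was at least 2.3-fold higher at 42 µM, taking for each DMSO array the higher of its lowest detected signal and the probe's own (limma, adjusted p = 0.0171). ESRRA, the orphan receptor through which PGC-1alpha drives oxidative genes, had all 42 µM arrays (11.28 to 11.51) above DMSO (10.60 to 10.91), and its difference of 0.598 had an adjusted p of 0.0364 in limma but fell just short of the size limit.

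**Figure D3:**
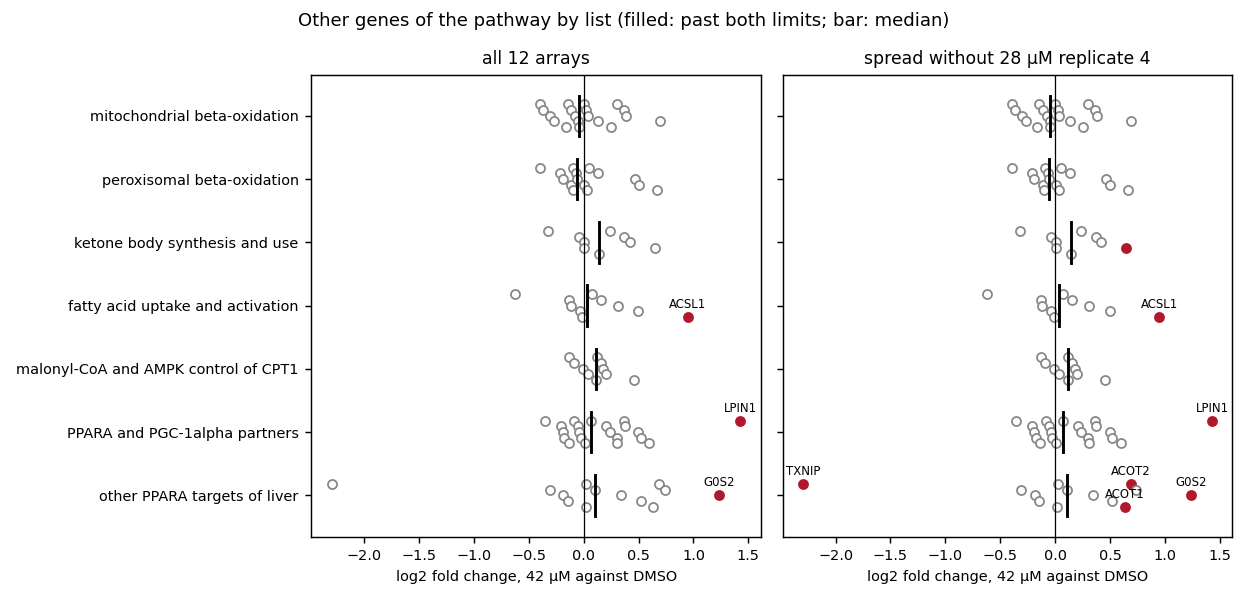
Log2 fold change of the 97 tested pathway genes at 42 µM against DMSO (x axis) by list (y axis), with all 12 arrays (left) and with 28 µM replicate 4 left out of the fit (right). Filled points passed both limits and black bars are list medians. LPIN1, ACSL1 and G0S2 are filled on both sides, and ACOT1, ACOT2 and TXNIP only on the right, where 1 filled point carries no name.

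Mitochondrial beta-oxidation outside the 8 genes held 19 tested genes, of which 0 were called in limma at 42 µM (3% of all genes). By an unadjusted p under 0.05 in limma, 3 were higher and 2 lower (16.1% of all genes, both directions). The median was -0.05, against -0.02 over all genes. The largest differences were those of ACAD11, an acyl-CoA dehydrogenase, at 0.69 (adjusted p = 0.0841), and of ECHS1, the short-chain enoyl-CoA hydratase, at -0.40 (adjusted p = 0.116). ECHS1 read 13.31 to 13.73 in DMSO and 13.03 to 13.19 at 42 µM, without overlap. In peroxisomal beta-oxidation 0 of 15 genes were called (3% of all genes), and the median was -0.06. By an unadjusted p under 0.05 in limma, 3 were higher and 0 lower (16.1% of all genes). AMACR, the racemase for branched-chain fatty acids, differed by 0.50 (adjusted p = 0.0888).

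In ketone body synthesis and use 0 of 9 genes were called with all arrays (3% of all genes), and the median was 0.14. By an unadjusted p under 0.05 in limma, 3 were higher and 0 lower (16.1% of all genes). ACAT1, the thiolase that joins acetyl-CoA units, was above DMSO on every treated array, by 0.37 at 42 µM (1.29-fold, interval 1.09 to 1.53, limma adjusted p = 0.106). BDH2, a cytosolic hydroxybutyrate dehydrogenase, differed by 0.42 (adjusted p = 0.072). ACAT1 and BDH2 each had a second tested probe, dimmer, that differed less at 42 µM. For ACAT1 A_24_P203678 the difference was 0.16 (limma, adjusted p = 0.647), and for BDH2 A_24_P80500 it was 0.04 (adjusted p = 0.931). BDH1, the mitochondrial hydroxybutyrate dehydrogenase, differed by 0.00 (interval 0.815 to 1.23-fold).

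Fatty acid uptake and activation held 10 tested genes, of which ACSL1 was called, with a median of 0.03. ACSL3 differed by 0.56 at 28 µM with all arrays (limma, adjusted p = 0.48) and rose by 0.89 there without replicate 4 (adjusted p = 0.0338). In the malonyl-CoA and AMPK control of CPT1, 0 of 10 genes were called at 42 µM (3% of all genes) and 1 had an unadjusted p under 0.05 in limma (16.1%). That gene was PRKAB2, an AMPK beta subunit, at 0.46 (adjusted p = 0.195), and PRKAG1, an AMPK gamma subunit, followed at 0.20 (adjusted p = 0.818). The list's median was 0.12. The 21 partners of PPARA and PGC-1alpha had a median of 0.07, with LPIN1 called.

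Among the 13 tested members of the list of other PPARA targets of liver, the median was 0.11 and G0S2 was called. PDK4, the kinase that shuts off pyruvate dehydrogenase in fasting, read 8.29 to 8.68 in DMSO and 8.05 to 8.64 at 42 µM, 0.906-fold with an interval of 0.702 to 1.17. ANGPTL4, a secreted inhibitor of lipoprotein lipase, differed by 0.02 (interval 0.731 to 1.41-fold). FGF21, a fasting hormone of liver, read 6.11 to 6.44 in DMSO and 6.33 to 7.03 at 42 µM, 1.27-fold with an interval of 0.999 to 1.61 (limma, adjusted p = 0.329). These 3 targets overlapped between 42 µM and DMSO. ACOT1 and ACOT2, acyl-CoA thioesterases whose near-identical transcripts may share signal, were above DMSO on all 42 µM arrays. Their differences of 0.63 and 0.69 had adjusted p-values in limma of 0.105 and 0.0894 with all arrays and of 0.0309 and 0.0384 without 28 µM replicate 4, and they passed both limits in 3 and 6 of 25 settings.

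TXNIP, the thioredoxin-interacting protein that restrains glucose uptake, had the largest difference of the 97 genes. It read 9.38, 9.96, 10.66 and 10.25 in DMSO, 7.60, 7.78, 7.59 and 10.74 at 28 µM and 8.37, 8.25, 7.15 and 7.29 at 42 µM. The 42 µM arrays and 3 of the 28 µM arrays were below every DMSO array, while 28 µM replicate 4 was the highest of all 12. With all arrays the 42 µM difference was -2.29 (limma, adjusted p = 0.0559) and the 28 µM difference -1.63 (adjusted p = 0.332). In the fit without that array TXNIP passed both limits downward at both doses. Its difference in that fit was -2.29 for the higher dose (limma, adjusted p = 0.00114) and -2.40 for the lower (adjusted p = 0.00339). Over the alternatives, TXNIP passed both limits in 6 of 25 settings at 42 µM and in 1 of 25 at 28 µM, the fit without that array.

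**Figure D4:**
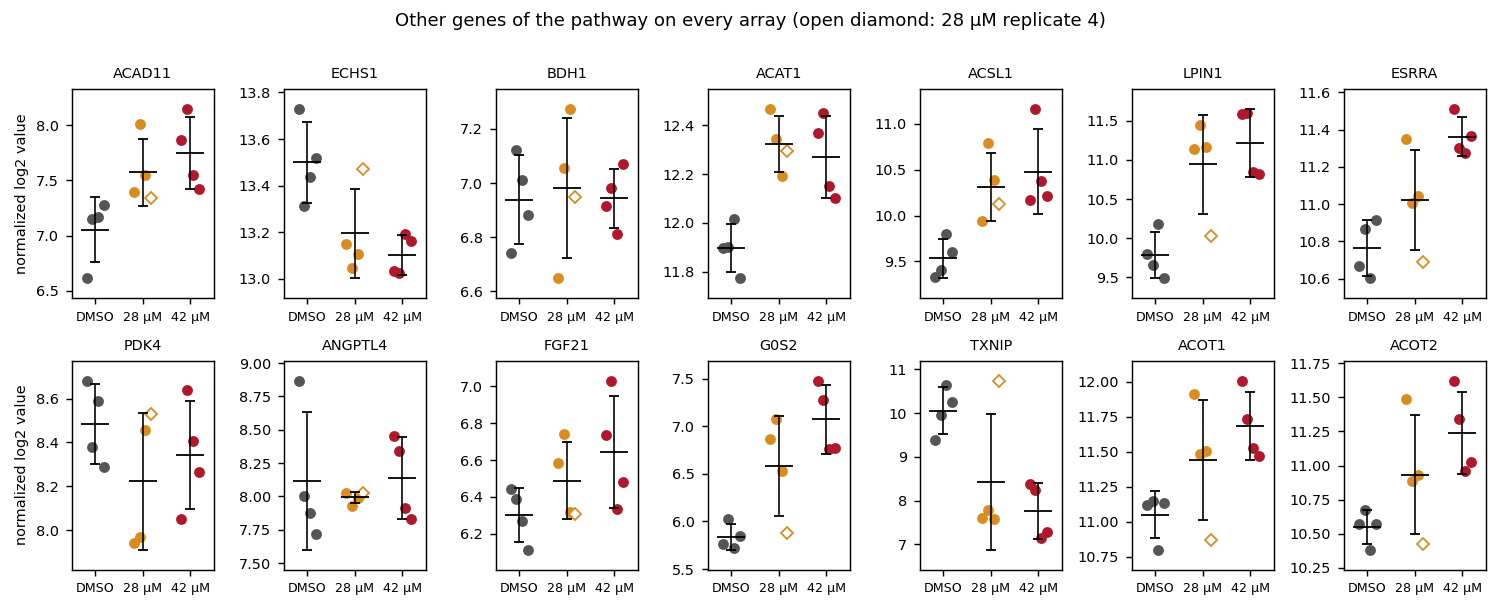
Normalized log2 value (y axes, each with its own range) of 14 pathway genes on the DMSO, 28 µM and 42 µM arrays (x axis). Points are arrays, bars are group means with the SD (n = 4), and the open diamond is 28 µM replicate 4. LPIN1, ACSL1 and G0S2 at 42 µM lie above all DMSO arrays and TXNIP below, while BDH1, PDK4 and ANGPTL4 overlap with DMSO.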

How the data were processed

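Total RNA of 12 HuH-7 cultures was labelled with Cy3 and hybridised to Agilent 4x44K whole human genome arrays. The deposited intensity values (mean and background signal per spot) come from the authors' scans, read with Agilent Feature Extraction 10.7.3.1 per their processing notes, with hg19 coordinates. The authors also deposited log2 values per probe, already normalized, which were used as an alternative. They correlated at 0.999 or more per array with the values used here, whose median difference from them was -0.0885, and their column medians were 7.07 to 7.08.

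Spots with an outlier flag and control spots were left out. As in the study's methods, background was then corrected by the Edwards method and arrays were quantile normalized, here in limma 3.58.1 (R 4.3.3). Replicate spots were averaged to 1 value per probe, and probes detected on fewer than 2 arrays of every group were left out, which kept 33476. All 3 groups were fitted together with lmFit and eBayes, two-sided, with Benjamini-Hochberg adjustment over all tested probes. The procedure was tested on simulated data. Precision is limited by 4 arrays per group. Genes outside the 8 were named through RefSeq accessions (28078 of 41000 probes matched), otherwise by the array design. The genes and lists were chosen with earlier results of these data known. Pathway genes named are those called in a comparison, the 2 largest differences at 42 µM of a list with none and, whatever their values, BDH1, ACAT1, PDK4, ANGPTL4 and FGF21. Some genes that the rule also takes are counted in the lists but not reported here by name. ESRRA, TXNIP, ACOT1, ACOT2 and ACSL3 were named after their values were seen.

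Alternatives were other background corrections and scalings, other filters, slide and replicate number as blocks, array weights, only the groups compared, and leaving out each array. A change of sign was counted as a reversal only when the value moved by more than 1 replicate SD.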

Additional observations from a re-analysis of the deposited data

Results flagged for a closer look

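Within the 39 sets of 4 arrays formed by 13 probes and 3 groups, 6 had 1 array far from the other three by Dixon's ratio, where chance marks about 1 set in 20. For PPARA A_23_P211643, DMSO replicate 2 read 6.26 against a nearest value of 5.95, and for PPARA A_23_P306730, DMSO replicate 4 read 6.16 against 5.92. Both probes were near background. For CPT1A A_24_P347065, 42 µM replicate 2 read 7.07 against 6.85. For CPT2, DMSO replicate 1 read 11.02 against 10.76, and the other three DMSO arrays also lay above every 42 µM array. For HADHA A_24_P353964, 28 µM replicate 2 read 7.92 against 6.87 and 42 µM replicate 4 read 7.60 against 7.27, while the other HADHA probe had no such array.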

How the results depend on the processing

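In each group comparison, single probes of the 8 genes were set against the alternatives 323 times. Of these, 320 at 28 µM, 318 at 42 µM and 323 between the doses kept their side of the limits without a counted reversal. A change of sign within 1 replicate SD was not counted. Between the doses, PPARA A_23_P211643 kept its sign in 20 of 24 settings. Reversals came with the processed signal. PPARA A_23_P211643 at 28 µM became 0.19 with quantile normalization and 0.40 with 75th percentile scaling, and with that scaling PPARGC1A A_24_P303052 became 0.19 at 28 µM and PPARA A_23_P211643 0.11 at 42 µM. The cause was not tested. At 42 µM the number of called probes of the 8 genes went from 0 to 1, each time PPARGC1A A_23_P18447, with the replicate block, with only the 2 groups compared, with array weights and without 28 µM replicate 4 (0 to 1 over the arrays left out in turn; limma adjusted p = 0.0131, 0.0409, 0.0403 and 0.0348). Called pathway genes at 42 µM, 3 with all arrays, were 5 with the Edwards correction and 75th percentile scaling, 0 with slide as a fixed block, 6 as a random block (correlation 0.193), 6 with the replicate block, 7 with only the 2 groups, 6 with array weights and 0 to 7 over the arrays left out. At 28 µM they were 0 to 4, with 4 only without 28 µM replicate 4. Whether replicate numbers pair the samples was not tested. Same-numbered arrays of different groups had deviations that correlated from -0.462 to 0.618, with a median of 0.22. Arrays with different numbers ran from -0.594 to 0.568, with a median of -0.07. Of the 12 arrays, 5 were closest to one with their own number.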

Other observations

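The genes whose values followed the named probes most closely over the 12 arrays were taken from 16272 genes by Pearson's r, as a description, since all points share the same 3 groups. For PPARGC1A A_23_P18447 they were RAB39B (r = 0.985), NIBAN1 (r = 0.982) and TACC2 (r = 0.98). NIBAN1, which encodes a stress-induced protein, differed by 1.57 at 42 µM (limma, adjusted p = 0.0764). For CPT1A A_23_P104563 they included DHRS3 (r = 0.946) and HPN (r = 0.946). DHRS3, a retinaldehyde reductase, rose by 0.998 at 42 µM (adjusted p = 0.0264), and HPN, the serine protease hepsin, rose by 1.33 (adjusted p = 0.014). For PPARA A_24_P570049 they were PTPRH (r = 0.967), STARD4 (r = 0.956) and ASAP3 (r = 0.956), of which PTPRH, a receptor tyrosine phosphatase, rose by 1.21 (adjusted p = 0.0184).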
